A study of Rattus norvegicus with 9 samples.

Results

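The gene expression of rat hearts was compared between the 3 RNA-seq libraries headed Cal and the 3 headed Model, over all 4288 genes of the table deposited for this pair of groups. The genes were those to which the authors' own test gave an adjusted p under 0.05, and the series lists 5760 genes over its 2 tables and 9 samples. Male Sprague Dawley rats of both groups had heart failure (HF) induced by tying off the left anterior descending coronary artery, so both groups carry the infarct. Rats of the Cal group received calycosin (Cal), an isoflavone of Astragalus root, orally at 80 mg/kg per day for 28 days from 24 h after surgery, and rats of the Model group received distilled water on the same schedule. The age of the rats is not given in the sources used here. Each library is the heart tissue of 1 of 3 rats taken from its group, and p-values therefore measure the spread between these 3 rats. The RNA was selected with poly-T beads, so transcripts without a poly(A) tail are poorly sampled.

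The names of the columns conflict, and libraries are named here by the heading of their own sample column. The mean column headed Cal averages the sample columns headed Model in 4288 of 4288 genes, and the one headed Model averages those headed Cal in 4288 of 4288. In the other table of the series, the mean column headed Model averages the Cal sample columns in 2458 of 2458 genes, and the reads of the libraries headed Cal are identical in all 986 shared genes. Read by the mean columns, every direction below is exchanged. Cal and Model without further words mean the libraries so headed, and a fold change is always Cal over Model.

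Values are normalized counts, which are read counts divided by 1 size factor per library (0.820 to 1.17). Reads on the listed genes numbered 2860826 to 3341738 in Cal and 3501023 to 3998471 in Model. The identifiers are mouse Ensembl genes in 4288 of 4288 rows, although the tissue is rat, and the positions given are those deposited, on a mouse build that the table does not name. The 3 libraries of a group had correlations across genes of 0.975 to 0.984 in Cal and 0.965 to 0.973 in Model, against 0.717 to 0.820 between groups. Lower values between groups were fixed in advance, since the authors' test chose these genes for differing between the same libraries. The median SD of a gene on the log2 scale was 0.175 in Cal and 0.328 in Model. Of 42 cardiomyocyte markers only 6 are listed and of 12 erythroid markers 0. Genes outside the table were not analysed here.

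A myocardial infarct heals through overlapping waves of cells. Neutrophils and inflammatory monocytes enter first and clear dead muscle, tissue macrophages and myofibroblasts follow and lay down matrix, and endothelial cells rebuild the vessels. Interferons, released when dying cells expose nucleic acids or when lymphocytes are active, act through STAT and IRF factors on genes that carry an interferon-stimulated response element, and the acute-phase response is driven by interleukin 6 and interleukin 1 through STAT3 and NF-kB. Surviving cardiomyocytes meanwhile change the genes of their contractile fibres, ion channels and fuel supply.

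A gene was called when its adjusted p from limma, run on log2(normalized count + 1), was below 0.05 and its log2 fold change lay outside -1 to 1. The adjusted p alone was passed by 99.6% of the 4288 genes. With the fold change limit 60.1% were called, 28.4% higher in Cal (1219 genes) and 31.6% lower (1356 genes), and these shares are the background for every list of genes described here. The re-test is not independent evidence of a difference, since the authors' test on the same libraries chose the genes, and 98.2% of the genes have groups that do not overlap. The called genes lower in Cal moved further, with a median log2 fold change of -1.87 and 219 genes beyond 3, against 1.62 and 100 genes on the higher side. They also carried more of the RNA. Summed over the genes called lower, the normalized counts were 433090 to 572040 in Cal and 1743500 to 2597100 in Model, and over those called higher 601770 to 639580 in Cal and 216210 to 254810 in Model. The median over all listed genes was -0.52. Median-ratio scaling on the listed genes moved that median to -0.23 and the split to 1646 higher and 1047 lower, and quantile normalization moved it to -0.10. The fold changes given include this shift, so the median of a list is to be set against the -0.52 of all listed genes. A single number in parentheses after a gene name is its log2 fold change, Cal over Model.

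Interferon-stimulated genes were lower in Cal, and their antiviral list had more genes called lower than any other list. All 21 listed interferon-inducible GTPases, which attack the vacuoles of intracellular pathogens, were lower in Cal, with a median log2 fold change of -3.73. The summed level of these GTPases was 12724, 9722 and 26832 in Cal and 162880, 278140 and 111720 in Model. The lowest Model library stood above the highest Cal library, and the mean was 11.2 times higher in Model. Gbp2 (ENSMUSG00000028270, mouse chromosome 3 from 142620602 to 142638008), a guanylate-binding protein, had normalized counts of 919, 941 and 2277 in Cal and 25287, 42016 and 20190 in Model (log2 fold change -4.47, standard error 0.41, limma adjusted p = 0.000233). Iigp1, an immunity-related GTPase, had 2143, 1400.4 and 3752 in Cal and 33729, 56092 and 13810 in Model (log2 fold change -3.73, standard error 0.54, limma adjusted p = 0.000957). In both genes Cal 3 was the highest Cal library and Model 2 the highest of all, and the groups did not overlap. Other members with lower levels, the last 2 named after their values were seen because their promoters are shown, were Gm12250 (-5.58), Gbp10 (-5.37), Igtp (-4.50) and Irgm2 (-2.79).

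Among interferon-stimulated antiviral genes 71 of 72 were lower in Cal and 0 higher, with a median of -2.59 and sums of 36602, 23354 and 74515 in Cal and 169260, 421200 and 199180 in Model. Ifit3, which binds viral RNA, had 1374, 654 and 5426 in Cal and 8762, 34231 and 13604 in Model (log2 fold change -3.24, standard error 0.79, limma adjusted p = 0.00639). Slfn4, a schlafen protein of myeloid cells, had 24, 16 and 91.4 in Cal and 829, 1780.5 and 586 in Model (log2 fold change -4.81, standard error 0.66, limma adjusted p = 0.000768). In both sums and in both genes Cal 3 was the highest Cal library and Model 2 the highest Model library, and every Model library was above every Cal library. Ifi206 and Ifi208, sensors of the interferon-inducible p200 family whose near-identical copies can share reads, had log2 fold changes of -4.69 and -4.40. The membrane protein Ifitm3, which blocks viral fusion, stood at 4201 ± 1817 in Cal against 11966 ± 696 in Model (SD, n = 3 each).

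Several factors of the IRF, STAT and SAND families were lower as well, a set picked from the deposited factor families after their values were seen. Not all of them carry the interferon signal. All 5 listed IRF factors were called lower, namely Irf7 (-3.14), Irf8 (-1.98), Irf4 (-1.89), Irf2 (-1.65) and Irf9 (-1.26). The call of Irf9 was lost without Cal 2 (-0.91), under median-ratio scaling (-0.97) and under quantile normalization (-0.76). Stat2 (-2.29) and Stat3 (-1.58) were lower, as were all 3 SAND-domain nuclear body proteins, Sp140 (-4.34), Sp110 (-2.95) and Sp100 (-1.93). Irf7, the master regulator of type I interferon genes, had 1562, 343 and 2916 in Cal and 7376, 13982 and 10495 in Model. The lowest Model value was above the highest Cal value, and Cal 2 was the lowest library.

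Antigen presentation split by class. All 21 listed genes of MHC class I and peptide loading were lower in Cal (median -1.94), and all 4 of MHC class II were higher (median 1.46). Nlrc5, the transactivator of class I genes, had 246, 69.5 and 377 in Cal and 2505, 4251 and 2495 in Model (log2 fold change -3.99, standard error 0.58, limma adjusted p = 0.00093), and Tap1, a subunit of the peptide transporter, had 519, 376 and 1174 in Cal and 4311, 7384 and 6061 in Model (log2 fold change -3.24, standard error 0.41, limma adjusted p = 0.000593). B2m, the light chain of class I molecules, had 7331, 4792 and 9814 in Cal and 19245, 26483 and 15907 in Model (log2 fold change -1.52, standard error 0.30, limma adjusted p = 0.00297). H2-Aa, a class II alpha chain, had 840.3, 726 and 968 in Cal and 351, 302 and 596 in Model (log2 fold change 1.07, standard error 0.26, limma adjusted p = 0.00649), with Model 3 the highest Model library. The call of H2-Aa was lost without Cal 3 (0.97), Model 1 (0.98) or Model 2 (0.87). That of H2-Eb1, another of the 4 class II genes, was lost without Model 2 (0.97). Class I genes have many near-identical copies, and how their reads were split is uncertain. Of 21 listed proteasome genes 6 (28.6%) were called lower, near the background of 31.6%, and 0 higher. The 6 are interferon-inducible immunoproteasome subunits and activators, namely Psmb8 (-2.59), Psmb9 (-2.49), Psmb10 (-1.69), Psme2 (-1.90), Psme1 (-1.34) and Psme2b (-1.12), of which Psmb10, Psme1 and Psme2b were named after their values were seen. The other 15 had log2 fold changes between -0.84 and -0.37.

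**Figure D1:**
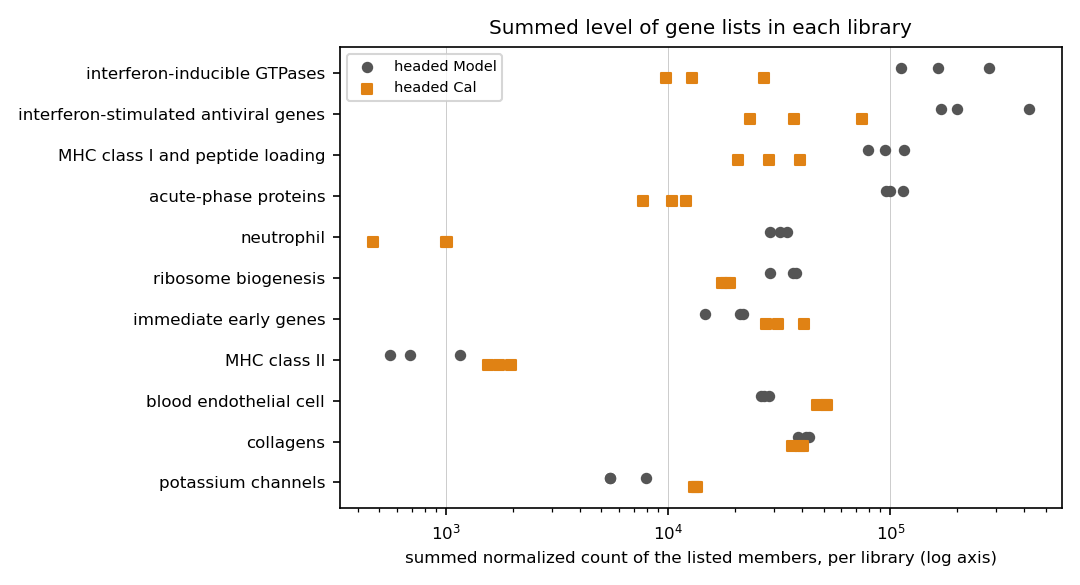
Summed normalized count of the listed members of 11 gene lists in each of the 6 libraries, on a log axis, with 1 point per library coloured by heading. The Cal and Model points of the interferon-inducible GTPases, antiviral genes, acute-phase proteins and neutrophil markers lie far apart with Model higher, the immediate early, MHC class II, blood endothelial and potassium channel sums lie higher in Cal, and the collagen sums overlap.

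The letters of the interferon-stimulated response element core were found in many of these genes' promoters. Promoters were taken from RefSeq on the rat build GRCr8, from 250 bases before to 50 after each gene's start, for 2984 of the 4288 listed genes matched by symbol. The motif searched, on both strands, was GAAANNGAAA. It occurred in 3.77% of all 27457 promoters, in 1.69% of 828 called higher in Cal, in 2.89% of those not called and in 10.1% of 841 called lower. The share was 75% for 8 interferon-inducible GTPases, 56.8% for 37 antiviral genes and 70% for 10 class I genes. A second interferon motif, the gamma-activated site TTCCNGGAA, was in 1.23% of all promoters, 0.483% of those called higher and 2.85% of those called lower. It was in 37.5% of the 8 GTPase promoters, 5.41% of the 37 antiviral ones and 0% of the 10 of class I genes. Matches to 1 motif could overlap those to another, and a match is a description of the letters only. The windows that follow show the match in capitals, with up to 25 bases on each side, read 5′ to 3′ on the gene's own strand. They are shown because most of these genes belong to the 3 lists named in the shares above, and the genes were picked for display after their values were seen: Igtp (chr10:42874919-42874978, plus strand), Irgm2 (chr10:42889843-42889902, plus strand), Gbp2 (chr2:234005671-234005726, plus strand), Gbp5 (chr2:233910918-233910977, plus strand), Gbp7 (chr2:233948823-233948882, plus strand), Isg20 (chr1:142239942-142240001, plus strand), Ifit3 (chr1:241527257-241527316, plus strand), Irf7 (chr1:205800058-205800117, minus strand), Tap1 (chr20:4668630-4668689, minus strand), Psme2 (chr15:33052770-33052829, minus strand) and B2m (chr3:129549155-129549214, plus strand). Where the capitals begin with TTTC, the motif lies on the opposite strand. Igtp and Irgm2 are neighbouring relatives, as are the Gbp genes, so their promoters are not independent examples.
Igtp: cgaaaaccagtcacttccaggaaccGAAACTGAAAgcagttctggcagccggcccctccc
Irgm2: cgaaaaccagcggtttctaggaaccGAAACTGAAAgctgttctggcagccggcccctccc
Gbp2: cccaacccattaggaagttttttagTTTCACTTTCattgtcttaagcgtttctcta
Gbp5: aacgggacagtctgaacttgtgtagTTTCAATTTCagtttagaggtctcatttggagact
Gbp7: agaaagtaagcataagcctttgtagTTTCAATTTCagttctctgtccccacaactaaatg
Isg20: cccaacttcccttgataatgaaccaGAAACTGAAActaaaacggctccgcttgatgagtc
Ifit3: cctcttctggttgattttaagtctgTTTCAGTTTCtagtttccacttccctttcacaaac
Irf7: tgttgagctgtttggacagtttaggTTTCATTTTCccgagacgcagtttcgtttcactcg
Tap1: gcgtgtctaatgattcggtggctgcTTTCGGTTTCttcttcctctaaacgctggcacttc
Psme2: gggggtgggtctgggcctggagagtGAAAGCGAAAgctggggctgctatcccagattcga
B2m: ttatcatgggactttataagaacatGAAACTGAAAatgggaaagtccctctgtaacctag

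**Figure D2:**
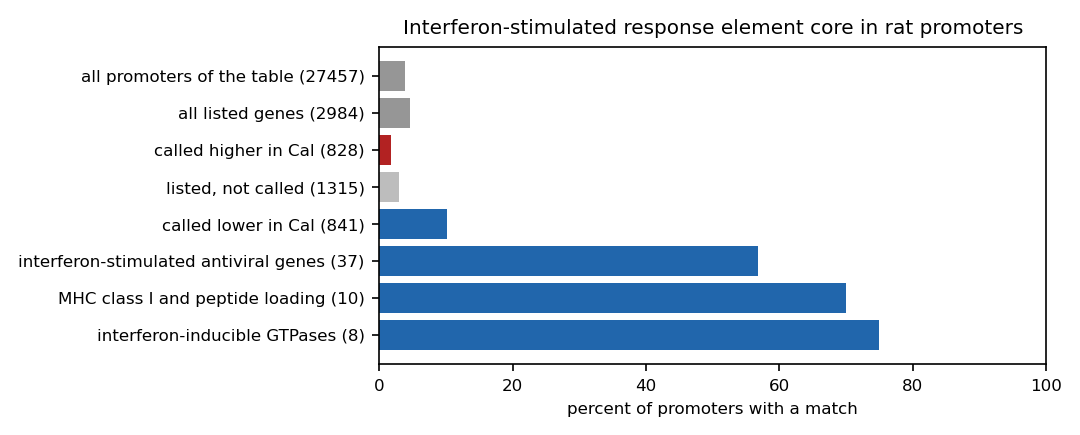
Percent of rat promoters (300 bases, number in brackets) that hold the interferon-stimulated response element core on either strand, for all promoters, for the listed genes by call, and for 3 gene lists. The bar of genes called lower in Cal (10.1%) is longer than that of all promoters (3.77%) and of genes called higher (1.69%), and the 3 gene lists stand between 56.8% and 75%.

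Acute-phase and neutrophil genes made up the other large block. All 24 listed acute-phase genes were lower in Cal, with a median of -3.38 (-3.0 with genes at 3 reads or fewer in a group set to their bound), and their summed level was 7696, 12053 and 10398 in Cal and 99073, 114400 and 95265 in Model. Lcn2 (ENSMUSG00000026822, mouse chromosome 2 from 32384633 to 32388252), an iron-chelating protein of neutrophil granules and stressed tissue, had 130.1, 379 and 295 in Cal and 27246, 28032 and 24834 in Model (log2 fold change -6.77, standard error 0.36, limma adjusted p = 7.65e-05). Saa3, an acute-phase apolipoprotein, had 10.1, 46.9 and 33.3 in Cal and 14370, 11344 and 10275 in Model. Serpina3m, a protease inhibitor whose near-identical copies can share reads, had 0.922, 2.82 and 0 in Cal and 100.4, 115 and 95.8 in Model. In each of the 3 genes every Model library was far above every Cal library.

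Of 28 neutrophil markers 23 are listed and all 23 were lower in Cal, with a median of -2.86 (-2.74 with bounds). In bulk tissue, fewer cells of a type and less RNA per cell cannot be told apart. Their sum was 466, 1009 and 995 in Cal and 31830, 34267 and 28574 in Model, and without Lcn2, which other cells also make, it was 336, 630 and 700 in Cal and 4584, 6235 and 3740 in Model. Both sums left a wide gap between the groups. S100a8 and S100a9, the paired subunits of calprotectin, were both lower. S100a8 had 12, 47.9 and 51.2 in Cal and 235, 165 and 225 in Model (log2 fold change -2.69, standard error 0.52, limma adjusted p = 0.00276), and S100a9 had 31.4, 90.1 and 113 in Cal and 424, 394 and 376 in Model (log2 fold change -2.52, standard error 0.44, limma adjusted p = 0.00183). Csf3r, the receptor for the granulocyte growth factor G-CSF, had 26.8, 29.1 and 59.8 in Cal and 254, 338 and 174 in Model (log2 fold change -2.74, standard error 0.37, limma adjusted p = 0.000757), and the formyl peptide receptors Fpr1 and Fpr2, which steer neutrophils to dying cells, were lower too (-3.58 and -3.83).

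Lymphocyte markers were few. Of 32 T and NK markers 7 are listed, all lower in Cal, although with a pseudocount of 10 only 3 were called, at a median of -0.97 in place of -2.62. Their sum was low in every library, at 40.6, 46 and 58.9 in Cal and 188, 415 and 268 in Model. Lck, a kinase of the T cell receptor, had 1.84, 4.69 and 6.83 in Cal and 36.7, 154 and 84.3 in Model (log2 fold change -3.98, standard error 0.59, limma adjusted p = 0.00102), and Il2rb, a chain of the interleukin 2 and 15 receptors, had 3.69, 9.39 and 7.69 in Cal and 19.4, 19.5 and 30.7 in Model (log2 fold change -1.66, standard error 0.41, limma adjusted p = 0.00678). The groups did not overlap in either gene. Gzma, a granzyme of killer cells, had 2.77, 2.82 and 0 in Cal and 14, 7.32 and 19.2 in Model, with at most 3 reads in any Cal library. The calls of Il2rb (-0.97) and Gzma were lost with the larger pseudocount. The other blood lists were split, with 2 higher and 2 lower of 4 listed B and plasma cell markers, 1 and 1 of 2 mast cell markers, 1 and 2 of 3 platelet markers and 2 and 1 of 3 dendritic cell markers. Among the last, Zbtb46, a factor of conventional dendritic cells and of endothelium, was higher in Cal (1.78), whereas Ccr7, the receptor that guides dendritic cells to lymph nodes, had a log2 fold change of -3.85.

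Macrophage markers moved both ways. Of 34 markers 23 are listed, 10 higher in Cal, 10 lower and 3 not called (median 0.81). The receptor Csf1r, which keeps tissue macrophages alive, had 961, 773 and 979.6 in Cal and 337, 239 and 349.8 in Model (log2 fold change 1.56, standard error 0.19, limma adjusted p = 0.000551). C1qa, a chain of the first complement component made by resident macrophages, had 1357, 957 and 1723 in Cal and 402, 376 and 578 in Model (log2 fold change 1.56, standard error 0.26, limma adjusted p = 0.00147). Lyz2, lysozyme of macrophages and neutrophils, had 4035, 3846 and 3909.7 in Cal and 1614, 1282 and 2125 in Model (log2 fold change 1.26, standard error 0.19, limma adjusted p = 0.0011). Cal was higher in all 3 with no overlap. Cx3cr1, the fractalkine receptor of patrolling and tissue macrophages, had 74.7, 46.9 and 59.8 in Cal and 2.16, 2.44 and 0 in Model, with at most 3 reads in any Model library.

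On the other side, Chil3, a chitinase-like protein of recruited monocytes and alternatively activated macrophages, had 0.922, 3.75 and 0.854 in Cal and 107, 78 and 156 in Model (log2 fold change -5.42, standard error 0.47, limma adjusted p = 0.000195). Further genes were chosen for the plot after their values were seen. Ly6c2 and Plac8, expressed by inflammatory monocytes, were lower in Cal. The mean of Ly6c2 was 6.38 ± 8.01 in Cal against 172 ± 23 in Model and that of Plac8 8.11 ± 9.43 in Cal against 204 ± 18.3 in Model (SD, n = 3 each). The activating antibody receptors Fcgr4 and Fcgr1 and the monocyte homing receptor Ccr2 were lower in Cal as well (-3.58, -2.99 and -1.56), and the resident macrophage scavenger receptor Cd163 was higher (1.66). Folr2, a folate receptor of resident macrophages, had 102, 52.6 and 78.6 in Cal and 19.4, 52.4 and 37.4 in Model, so its groups nearly touched. The call of Folr2 was lost without Cal 1 (0.91), Cal 3 (1.10), Model 1 (0.75) or Model 3 (1.20), with limma adjusted p of 0.0559 to 0.0973. Fcgr1, Fcgr4 and Plac8 also respond to interferon, and the part of that response in their levels was not tested. Cd68, a general macrophage marker, had 159, 120.1 and 196 in Cal and 97.2, 70.7 and 98.7 in Model and was not called (log2 fold change 0.81, limma adjusted p = 0.0144).

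**Figure D3:**
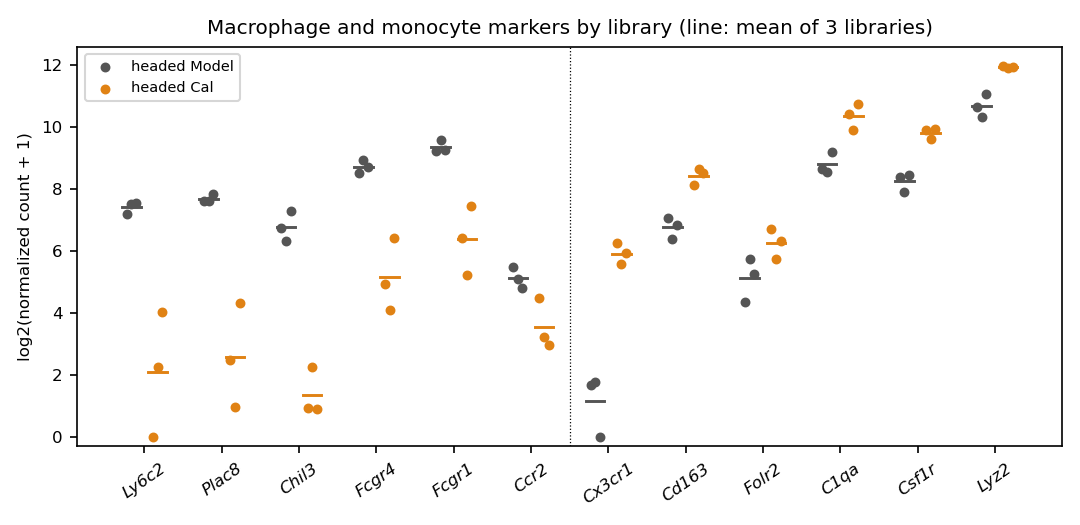
Normalized count of 12 macrophage and monocyte markers in each library, as log2(normalized count + 1), with 1 point per library coloured by heading and a line at the mean of the 3 libraries. The 6 genes left of the dotted line (Ly6c2 to Ccr2) are lower in Cal and the 6 right of it (Cx3cr1 to Lyz2) higher.

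Signals between immune cells followed the same division in part. Of 18 listed chemokines 6 were higher in Cal and 10 lower. Cxcl9 and Cxcl11, interferon-induced ligands that attract T cells, were lower, with Cxcl9 at 529, 443 and 2050.5 in Cal and 27037, 34380 and 15221 in Model (log2 fold change -4.95, standard error 0.58, limma adjusted p = 0.000465) and Cxcl11 at 6.46, 17.8 and 90.5 in Cal and 987, 2741 and 1222 in Model. Ccl5, which attracts T cells and monocytes, had 72.9, 125 and 129.8 in Cal and 2232, 3055 and 2629 in Model (log2 fold change -4.62, standard error 0.25, limma adjusted p = 7.65e-05). In all 3 the Model libraries were higher with no overlap. Higher in Cal were Cxcl12, the ligand that holds progenitors in place (2.70), the monocyte attractants Ccl6 and Ccl12 (2.43 and 1.67), and Cxcl1, a neutrophil attractant, which had 18275, 19779 and 19100 in Cal and 5910.3, 10595 and 5328 in Model (log2 fold change 1.46, standard error 0.26, limma adjusted p = 0.00213). Among 11 chemokine receptors 2 were higher and 7 lower, with the decoy receptor Ackr1 at -3.62.

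Of 16 genes in the interleukin list 11 were lower in Cal and 2 higher (median -1.80, -1.41 with bounds). Their summed level did not follow, at 14603, 14921 and 16684 in Cal and 10349, 18415 and 13446 in Model, so the groups overlapped. Csf3, which encodes G-CSF, had 45.2, 189.6 and 134 in Cal and 1191, 2373 and 2070.3 in Model. Il33, an alarm signal of damaged stroma, had 87.6, 80.7 and 106 in Cal and 586, 940.2 and 696 in Model (log2 fold change -2.99, standard error 0.22, limma adjusted p = 0.000133), and Il1rn, the antagonist of interleukin 1, a log2 fold change of -3.18. Il1b, the main inflammatory interleukin 1, went the other way and was higher in Cal (2.02, limma adjusted p = 0.000623). Of 24 receptor chains 21 were lower, 2 were not called and 1, Csf1r, was higher. The shared beta chain Csf2rb of the GM-CSF, interleukin 3 and interleukin 5 receptors had 33.2, 67.6 and 35 in Cal and 324, 289 and 309.6 in Model (log2 fold change -2.81, standard error 0.29, limma adjusted p = 0.0003), and its near-identical copy Csf2rb2, with which reads can be shared, a log2 fold change of -2.87. Neutrophils carry several of these receptors, their markers were lower in the same libraries, and their part in the count was not tested.

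Receptors and switches of innate immunity were lower for the most part. Of 35 genes of the Toll-like, NOD-like and C-type lectin receptor pathways 22 were lower and 7 higher. Clec4e, a lectin that senses dead cells, had 63.6, 151 and 116 in Cal and 950.3, 1251 and 358 in Model (log2 fold change -2.85, standard error 0.50, limma adjusted p = 0.00188), and Irak3, a brake on Toll-like receptor signals, had 132, 195 and 260.5 in Cal and 1855, 2148 and 1358 in Model (log2 fold change -3.21, standard error 0.28, limma adjusted p = 0.000195). Nlrp3, the sensor of the inflammasome that matures interleukin 1 beta, had 872, 602 and 600.4 in Cal and 340.2, 389 and 195 in Model (log2 fold change 1.20, standard error 0.29, limma adjusted p = 0.00588) and was higher in Cal, against most of the list, as was the endothelial lectin Clec14a (2.0). The call of Nlrp3 was lost without Model 3 (0.90). Of 11 NF-kB genes 5 were lower, among them the kinase Ikbke (-2.94) and the inhibitor Tnip1 (-1.97), and 2 were higher, the subunit Rel (1.18) and the nuclear inhibitor Nfkbid (2.91).

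Complement was split. Of 13 genes 5 were higher in Cal and 6 lower, against 6 and 4 under median-ratio scaling. The macrophage products C1qa and C1qc were higher, with C1qc at 1054, 772 and 1149 in Cal and 292, 219.5 and 496 in Model (log2 fold change 1.62, standard error 0.31, limma adjusted p = 0.00242). C1ra, C1s1 and the inhibitor Serping1, made by stromal cells and the liver, were lower (-2.24, -1.38 and -1.52). Of 31 genes of cell death 20 were lower and 8 higher. Mlkl, the effector of necroptosis, had 103, 86.4 and 146 in Cal and 1286, 2327 and 1389.8 in Model (log2 fold change -3.87, standard error 0.28, limma adjusted p = 0.000133), and the death ligand Tnfsf10 and the BCL2 family member Bid were lower too (-3.13 and -2.49). Tnf, the inflammatory cytokine, had 757, 416 and 424 in Cal and 163, 132 and 87.2 in Model and was higher in Cal (log2 fold change 2.04, standard error 0.31, limma adjusted p = 0.00115). Nos2, the inducible nitric oxide synthase, had 213, 186 and 180.2 in Cal and 974, 1366 and 842 in Model, and the arginine carrier Slc7a2 that feeds it 109.8, 157 and 178 in Cal and 1938, 2978 and 1880.5 in Model (log2 fold change -3.92, standard error 0.25, limma adjusted p = 9.07e-05). Both had higher levels in every Model library, whereas Nos3, the endothelial synthase, was higher in Cal (2.01). Over the 10 listed genes of this pathway 4 were higher and 3 lower.

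**Figure D4:**
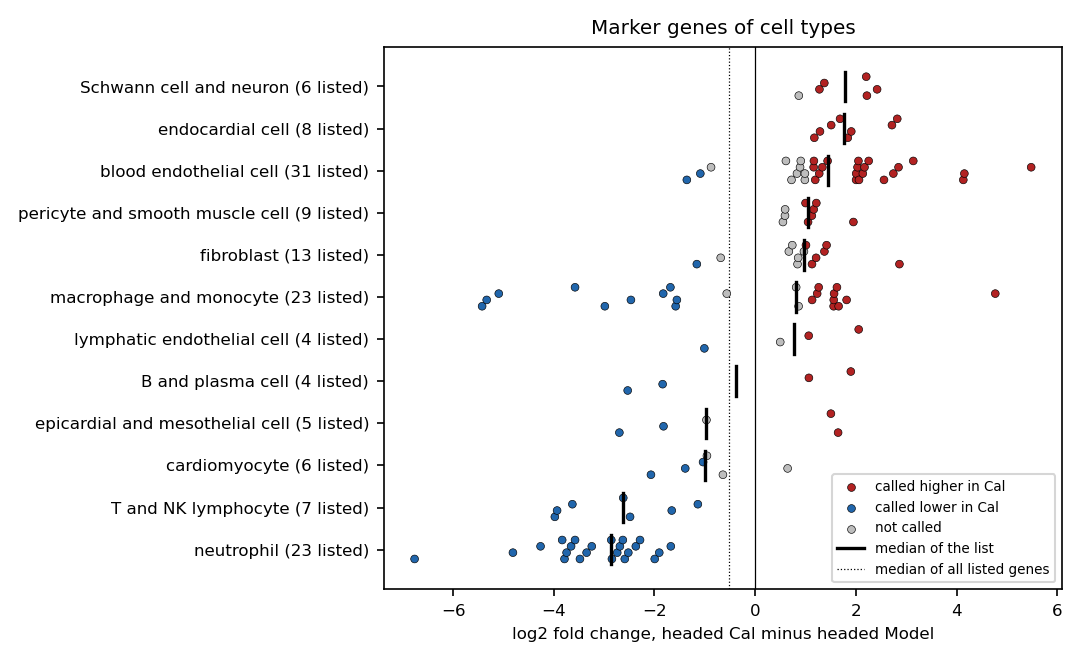
Log2 fold change (Cal over Model) of each listed marker gene, 1 point per gene, by cell type, with the number of listed markers in brackets, the median of each list as a bar and the median of all listed genes dotted. Neutrophil and T and NK markers lie left of 0, endothelial, endocardial and Schwann cell markers mostly right of it, and macrophage markers on both sides.

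Genes of the vessel wall stood on the higher side. Of 41 blood endothelial markers 31 are listed, 21 higher in Cal and 2 lower, with a median of 1.44. The summed level was 51420, 46706 and 51734 in Cal and 26921, 26114 and 28332 in Model, 1.84 times higher in Cal with no overlap. Pecam1, an adhesion protein of endothelial junctions, had 3437, 3477 and 3736 in Cal and 2113, 1051 and 1251 in Model (log2 fold change 1.33, standard error 0.25, limma adjusted p = 0.0024). Kdr, the main receptor for vascular endothelial growth factor, had 3382, 2054 and 2576 in Cal and 1060.5, 812 and 1039.9 in Model (log2 fold change 1.44, standard error 0.21, limma adjusted p = 0.00096), and Tek, the angiopoietin receptor, 1345, 1013 and 1399.7 in Cal and 243, 337 and 317 in Model (log2 fold change 2.06, standard error 0.19, limma adjusted p = 0.000241). Rbp7, a retinol-binding protein of heart and fat capillaries, was higher as well (5.48), while Robo4, which steadies vessels, was lower (-1.36). Aqp1, the water channel of capillaries, had 10198 ± 1114 in Cal against 2261 ± 981 in Model (SD, n = 3 each), and the lipoprotein lipase anchor Gpihbp1 a log2 fold change of 2.85.

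All 8 listed of 9 endocardial markers were higher in Cal (median 1.76), with sums of 4514, 4136 and 4940.5 in Cal and 1650.1, 1766 and 1785 in Model. Npr3, the clearance receptor for natriuretic peptides, had 478, 385 and 486 in Cal and 141, 218 and 124 in Model (log2 fold change 1.51, standard error 0.24, limma adjusted p = 0.00127). Nfatc1, a factor of valve and endocardial endothelium, had 609, 744 and 808 in Cal and 159.8, 221 and 194 in Model (log2 fold change 1.91, standard error 0.18, limma adjusted p = 0.000256). Their Cal libraries were all above their Model libraries. Of 14 Schwann cell and neuron markers 6 are listed and 5 were higher. Pericyte and smooth muscle markers were higher for 6 of 9 listed of 20, with Itga8 at 1.95, while Acta2, smooth muscle actin, had 2102, 2309.9 and 2278 in Cal and 1457, 1528 and 1578 in Model and was not called (log2 fold change 0.55, standard error 0.12, limma adjusted p = 0.00408). Of 4 listed lymphatic markers 2 were higher and 1 lower, with Prox1 at 1.06, and of 5 epicardial markers 2 and 2, with Wt1 at 1.50. The call of Prox1 was lost without Cal 1 (0.96) or Model 3 (0.80).

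Of 20 Wnt and Notch genes 12 were higher in Cal and 3 lower, with a median of 1.30. Notch4, the Notch receptor of endothelium, had 830.2, 824 and 764 in Cal and 487, 268 and 311 in Model (log2 fold change 1.23, standard error 0.23, limma adjusted p = 0.00221), the Notch ligand Jag2 a log2 fold change of 2.59, and the target Heyl one of 1.37. Gja5, the connexin of arteries and fast conduction, was higher in Cal (2.12) and Gja4, another arterial connexin, lower (-1.66). Selectins and adhesion molecules gave 3 higher and 5 lower of 12 listed. Their median of -0.13 is near 0 and changed sign under both other scalings and without Model 3 (0.017). Itgam, carried by leukocytes, was lower (-1.83), and Icam2, of resting endothelium, was higher (1.02). The call of Icam2 was lost without Cal 3 (0.94) or Model 2 (0.89). E-selectin (Sele) was higher in Cal (2.13) and P-selectin (Selp) lower (-1.81).

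Collagens were higher by gene but not by sum. Of 18 listed collagen genes 12 were higher in Cal and 2 lower (median 1.16, 1.04 with bounds), yet the summed level was 36207, 39013 and 40593 in Cal and 41632, 38438 and 42798 in Model, so the groups overlapped. The basement membrane chains Col4a1 and Col4a2, named after their values were seen, together had 17684, 22144 and 21253 in Cal and 32622, 29096 and 34588 in Model. The other 16 had 18523, 16870 and 19339 in Cal and 9010, 9342 and 8210 in Model, so these parts went opposite ways without overlap. Col5a1, which sets the width of collagen fibrils, had 1172, 1209 and 1290.4 in Cal and 300.2, 257 and 275 in Model (log2 fold change 2.14, standard error 0.13, limma adjusted p = 8.93e-05), and the log2 fold change of Col1a2, a chain of type I collagen, was 1.01. The call of Col1a2 was lost without Cal 1 (0.96), Cal 3 (0.94) or Model 1 (0.92). Fibroblast markers, which include collagens, gave 6 higher and 1 lower of 13 listed of 30, with sums that overlapped. Median-ratio scaling and quantile normalization each gave 10 higher and 0 lower. C3, a complement component in that list, had a log2 fold change of -1.16.

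Other matrix genes were split. Of 47 listed 22 were higher in Cal and 10 lower (median 0.84). Eln, elastin, had 941, 1094 and 1087 in Cal and 72.4, 111 and 79.6 in Model (log2 fold change 3.58, standard error 0.20, limma adjusted p = 7.65e-05), and Has1, a hyaluronan synthase, 201, 453 and 312 in Cal and 40, 50 and 30.7 in Model (log2 fold change 2.92, standard error 0.33, limma adjusted p = 0.000395). Lower in Cal were the thrombospondin Thbs4, which is known from stressed hearts, at 109.8, 83.5 and 133 in Cal and 541, 607 and 599 in Model (log2 fold change -2.43, standard error 0.20, limma adjusted p = 0.000178), the proteoglycan Vcan (-2.40) and the collagen-crosslinking enzyme Lox (-2.17). Of 32 matrix proteases and inhibitors 10 were higher and 15 lower. Timp1, an inhibitor of metalloproteinases, had 107, 237 and 162 in Cal and 714, 879 and 1254 in Model (log2 fold change -2.52, standard error 0.32, limma adjusted p = 0.00062), Mmp3 and Mmp13 had lower levels (-2.08 and -3.01), and Plau, the urokinase, was higher (3.40). Genes of the transforming growth factor pathway gave 6 higher and 7 lower of 23 (10 higher and 6 lower under either other scaling), with Tgfb1 at 2.06, Tgfb3 at 1.39 and the activin subunit Inhbb at -3.56.

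Growth factors and receptor tyrosine kinases gave 27 higher and 16 lower of 57 listed. Fgf2, a growth factor of vessels and fibroblasts, had 179, 208 and 184 in Cal and 1719, 2768 and 1024 in Model (log2 fold change -3.15, standard error 0.33, limma adjusted p = 0.000309). Pgf, placental growth factor, had 198, 290.0 and 321 in Cal and 1436, 2050 and 3052 in Model (log2 fold change -2.97, standard error 0.30, limma adjusted p = 0.000289). Both were lower in every Cal library, whereas Vegfa, the main endothelial growth factor, was higher (1.27) and so were the receptors Fgfr3 and Ephb3 (3.24 and 3.17). Angptl4, a lipase inhibitor that fatty acids, hypoxia and glucocorticoids all raise, had 151, 534 and 332 in Cal and 2406, 2594 and 2926 in Model (log2 fold change -3.13, standard error 0.41, limma adjusted p = 0.00065). Among 13 listed hypoxia-responsive genes 6 were lower in Cal, Hif1a (-2.30) and Hmox1 (-2.39) among them, and 2 were higher, Egln3 (1.30) and Vegfa.

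**Figure D5:**
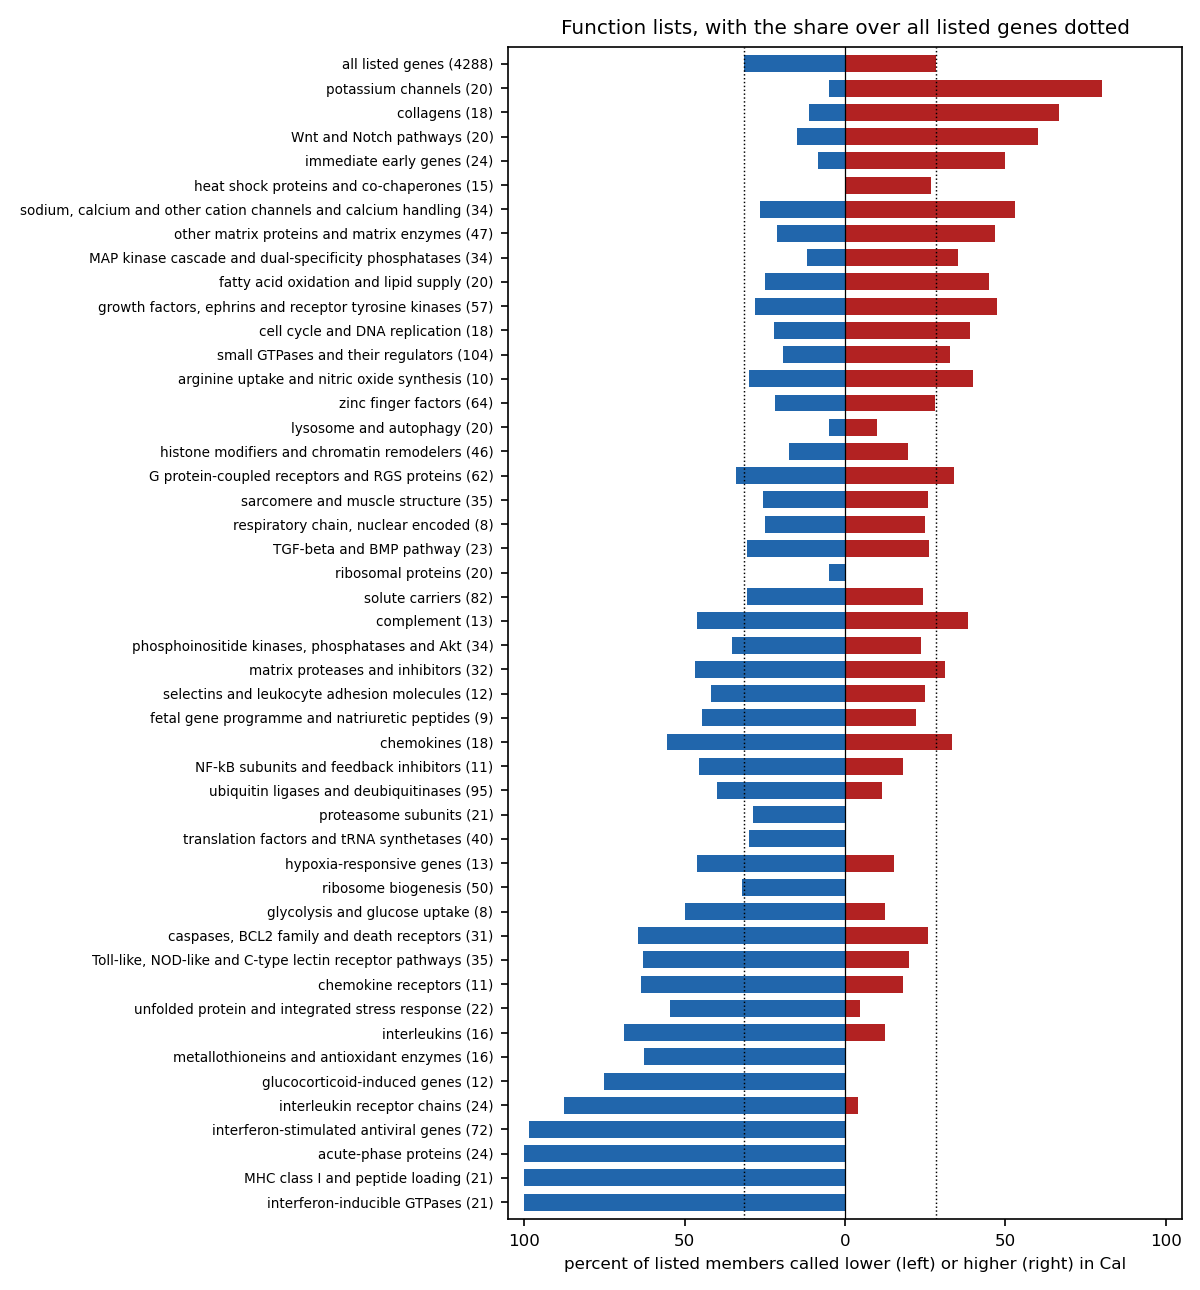
Percent of the listed members of each function list that were called lower (left) or higher (right) in Cal, with the number of listed members in brackets and the shares over all listed genes (28.4% higher, 31.6% lower) dotted. Interferon, class I, acute-phase and interleukin receptor lists extend to the left, and potassium channel, collagen and Wnt and Notch lists to the right, with lists under 8 listed members left out.

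Muscle genes gave no single direction. Of the 6 listed cardiomyocyte markers 3 were lower in Cal, with sums of 41413, 38897 and 46288 in Cal and 79393, 83324 and 81076 in Model, and quantile normalization gave 1 higher and 1 lower. Ankrd1 (ENSMUSG00000024803, mouse chromosome 19 from 36111965 to 36119844), a stretch-responsive protein of the sarcomere, had 7465, 7866 and 9964 in Cal and 41578, 44368 and 23501 in Model (log2 fold change -2.07, standard error 0.27, limma adjusted p = 0.000688). Nppa, atrial natriuretic peptide, had 622, 695 and 896 in Cal and 988, 1429 and 2363 in Model (log2 fold change -1.04, standard error 0.31, limma adjusted p = 0.0135), and Nppb, brain natriuretic peptide, 1402, 1884 and 1916 in Cal and 2848, 2843 and 4587 in Model (log2 fold change -0.96, not beyond the limit of 1). The Model libraries were above the Cal libraries in all 3 genes. The call of Nppa was lost without Cal 1 (-0.92) or Model 3 (-0.70), and under median-ratio scaling and quantile normalization its adjusted p was 0.0591 and 0.0824, whereas Nppb passed both limits without Model 1 (-1.07), Model 2 (-1.07), Cal 2 (-1.03) or Cal 3 (-1.04). Of 9 listed genes of the fetal programme 4 were lower, with Rcan1, a calcineurin feedback inhibitor, at -2.90 and Uchl1, a deubiquitinase, at -1.17, and 2 were higher, against 3 higher and 2 lower under median-ratio scaling. The call of Uchl1 was lost without Cal 1 (-0.87) or Model 1 (-0.96) and under median-ratio scaling (-0.87). Tcap, a cap protein of titin, had 15702, 11209 and 16781 in Cal and 20352, 19058 and 28849 in Model and was not called (-0.64), and its sign turned under quantile normalization.

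Of 35 sarcomere and muscle structure genes 9 were higher, 9 lower and 17 not called. Under median-ratio scaling 13 were higher and 7 lower, and under quantile normalization 17 and 6. Ky, a protein needed for the upkeep of muscle under load, had 482, 298 and 484 in Cal and 4.32, 6.1 and 18.2 in Model (log2 fold change 5.52, standard error 0.49, limma adjusted p = 0.000201). Lmod3, which starts thin actin filaments, had 1344, 1152 and 1318 in Cal and 288, 334 and 373 in Model (log2 fold change 1.94, standard error 0.15, limma adjusted p = 0.000155), and the slow myosin Myh7b 591, 532 and 445 in Cal and 149, 130.5 and 165 in Model (log2 fold change 1.81, standard error 0.18, limma adjusted p = 0.00026). In these the Cal libraries were higher without overlap. Ankrd2, a stretch-responsive relative of Ankrd1, and Actn1, an actin crosslinker of non-muscle cells, were lower (-5.22 and -1.95). Fhl2, a LIM protein of the sarcomere, had 25995 ± 303 in Cal against 13054 ± 3198 in Model, and Jph2, which couples membrane to calcium store, 9413 ± 615 in Cal against 4752 ± 1922 in Model (SD, n = 3 each). Both were called higher, at 1.02 and 1.06, close to the limit. The call of Fhl2 was lost without Model 1 (0.84), and that of Jph2 without Model 1 (0.90) or Model 2 (0.89). Neither gene reached the fold change limit with edgeR or DESeq2 (0.99 for Fhl2 and 0.99 for Jph2 in both). Asb2, a ubiquitin ligase subunit of muscle, was among the most abundant genes per kb on the higher side (2.67).

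Potassium channel genes were mostly higher in Cal. Of 20 listed 16 were higher in Cal and 1 lower, with a median of 1.62 (1.44 with bounds) and sums of 13516, 13355 and 13098 in Cal and 5444, 5440.2 and 7898 in Model. Kcnd3 (ENSMUSG00000040896, mouse chromosome 3 from 105452330 to 105674002), the pore of the transient outward current, had 189, 229 and 197 in Cal and 58.3, 72 and 49.8 in Model (log2 fold change 1.77, standard error 0.21, limma adjusted p = 0.000474). Kcnj11, the pore of the ATP-sensitive channel, had 2155, 1970.1 and 2005 in Cal and 606, 538 and 854 in Model (log2 fold change 1.64, standard error 0.19, limma adjusted p = 0.000395), and Kcnj5, of the acetylcholine-gated channel, 1328, 1045 and 1277 in Cal and 346, 445 and 419.8 in Model (log2 fold change 1.59, standard error 0.16, limma adjusted p = 0.000289). All Cal libraries were above all Model libraries in these genes. The exception was Kcne4, an inhibitory subunit (-2.36). Of 34 other cation channel and calcium handling genes, connexins among them, 18 were higher and 9 lower. The sodium pump subunit Atp1b2 was at 1.89 on the higher side and the osmosensitive channel Trpv4 at -1.51 on the lower.

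In fuel supply, 9 of 20 listed genes of fatty acid oxidation and lipid supply (67 in the list) were higher and 5 lower (median 0.90). Pdk4, a kinase that holds back the oxidation of pyruvate, had 10408, 22731 and 11905 in Cal and 93951, 103460 and 78889 in Model (log2 fold change -2.70, standard error 0.31, limma adjusted p = 0.00044). With it, the list's sum of 33410, 49900 and 35706 in Cal and 118750, 129300 and 106870 in Model was higher in Model. Without Pdk4 the sums were 23003, 27169 and 23801 in Cal and 24803, 25834 and 27979 in Model and overlapped. Ppargc1b, a coactivator of mitochondrial genes, had 364, 379 and 325 in Cal and 64.8, 28 and 33.5 in Model (log2 fold change 3.14, standard error 0.31, limma adjusted p = 0.000281), and Mgll, which splits monoglycerides, was higher too (2.52). Of 8 listed of 41 genes of glycolysis and glucose uptake 4 were lower, Slc2a1, the basal glucose carrier, at -1.49 among them, and 1 was higher, the heart's phosphofructokinase activator Pfkfb2 (1.85). Either other scaling gave 2 higher and 2 lower in that list. The core of respiration is barely listed, with 1 of 42 tricarboxylic acid and branched-chain genes, and 2 higher and 2 lower of 8 nuclear genes of the respiratory chain.

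Of 7 listed mitochondrially encoded genes 4 were higher in Cal and 2 lower, but edgeR and DESeq2 each called 2 higher and 2 lower. Median-ratio scaling gave 4 higher and 0 lower and quantile normalization 3 higher and 1 lower. The protein-coding one, mt-Nd4l, a complex I subunit whose gene overlaps that of mt-Nd4, had 8787, 8949 and 6473 in Cal and 1806, 1948 and 4089 in Model (log2 fold change 1.71, standard error 0.32, limma adjusted p = 0.00235). The other 6 are transfer RNAs, which poly-T selection samples poorly and whose reads can come from their neighbours.

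Stress programmes separated too. Of 24 immediate early genes, switched on within minutes by growth signals or calcium, 12 were higher in Cal and 2 lower, with sums of 40862, 27450 and 31325 in Cal and 14673, 21640 and 20939 in Model that did not overlap. Fosb, an AP-1 subunit, had 404, 179 and 288 in Cal and 17.3, 14.6 and 12.5 in Model (log2 fold change 4.14, standard error 0.33, limma adjusted p = 0.000158). Nr4a1, an orphan nuclear receptor, had 2350.3, 1031 and 1500.5 in Cal and 229, 206 and 300 in Model (log2 fold change 2.66, standard error 0.30, limma adjusted p = 0.00039), and Egr3, a zinc finger factor, 1359, 455 and 703 in Cal and 40, 63.4 and 33.5 in Model (log2 fold change 4.08, standard error 0.42, limma adjusted p = 0.000289). Cal was higher in all 3 with no overlap, while Gadd45a, a growth arrest gene, and Klf2, a factor of sheared endothelium, were lower (-1.43 and -1.12). Of 15 heat shock genes 4 were higher (26.7%, near the background of 28.4%) and 0 lower. Hspa1a and Hspa1b, near-identical copies of the inducible HSP70 that can share reads, were both higher. Hspa1a had 409.6, 297 and 466 in Cal and 35.6, 24.4 and 53.7 in Model, and Hspa1b had 648, 868 and 1181 in Cal and 67, 41.5 and 50.8 in Model.

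Serum response sites (the CArG box) and cyclic AMP response elements (TGACGTCA), the classical switches of immediate early genes, were each found in 26.3% of 19 immediate early promoters, against 1.64% and 1.91% of all promoters, with both strands searched and overlaps kept. Examples of the CArG box in genes higher in Cal are Egr2 (chr20:21054490-21054549, minus strand), Dusp5 (chr1:262543677-262543736, plus strand) and Zfp36 (chr1:92799109-92799165, minus strand), with the match in capitals. Egr2 encodes a zinc finger factor, Dusp5 a phosphatase of nuclear ERK and Zfp36 a protein that destabilizes cytokine mRNAs, and their log2 fold changes were 2.02, 1.21 and 1.09. The call of Dusp5 was lost without Model 1 (0.92), and that of Zfp36 without Cal 1 (0.92) or Model 1 (0.82). The 3 were named after their values were seen.
Egr2: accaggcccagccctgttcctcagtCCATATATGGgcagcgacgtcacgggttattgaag
Dusp5: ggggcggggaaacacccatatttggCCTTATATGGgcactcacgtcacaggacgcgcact
Zfp36: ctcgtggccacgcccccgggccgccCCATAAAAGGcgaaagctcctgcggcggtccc

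Of 22 listed of 44 genes of the unfolded protein and integrated stress response 12 were lower and 1 higher, and 8 were lower under median-ratio scaling as under quantile normalization. Trib3, a pseudokinase induced through ATF4, had 22.1, 9.39 and 14.5 in Cal and 212, 317 and 135 in Model (log2 fold change -3.76, standard error 0.41, limma adjusted p = 0.000346), and Asns, which makes asparagine, 46.1, 74.2 and 73.4 in Cal and 631, 959 and 294 in Model (log2 fold change -3.14, standard error 0.42, limma adjusted p = 0.000741). Both had their lowest Model value above their highest Cal value. Of 40 translation factors and tRNA synthetases 12 were lower (30.0%) and 0 higher, a share near the background of 31.6%, and median-ratio scaling left 6 lower and quantile normalization 5. The named ones include the interferon-induced Wars (-2.57) and Eif2ak2 (-2.40), the double-stranded RNA kinase PKR. Of 50 ribosome biogenesis genes 16 were lower (32.0%) and 0 higher, with a median of -0.81, so the lower share was again that of the background. It fell to 4 genes under median-ratio scaling and 9 under quantile normalization. Heatr1, which helps RNA polymerase I, had 231, 267 and 205 in Cal and 790.5, 673 and 579.9 in Model (log2 fold change -1.53, standard error 0.18, limma adjusted p = 0.00041). An E-box (CACGTG) was in 40.0% of 45 ribosome biogenesis promoters, 9.48% of the promoters of all listed genes and 6.65% of all promoters. Ribosomal proteins themselves hardly entered, with 1 of 20 called lower and a median of -0.55 that is close to the -0.52 of all listed genes and turned to 0.036 under quantile normalization.

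Of 95 ubiquitin ligases and deubiquitinases 38 were lower in Cal and 11 higher. Usp18, which removes the interferon-induced tag ISG15, had 339, 111 and 745 in Cal and 1840.2, 5328 and 4162 in Model (log2 fold change -3.50, standard error 0.68, limma adjusted p = 0.00275), and Herc6 and Trim30d, interferon-induced ligases, were lower (-3.29 and -3.35). Klhl3, an adaptor of cullin ligases that controls salt transport, was higher (2.50). Metallothioneins and antioxidant enzymes were lower for 10 of 16 listed of 43 and higher for 0, with 1 higher and 6 lower under median-ratio scaling. Mt2 and Mt1, which bind zinc and are raised by glucocorticoids and metals, were lower in Cal (-3.13 and -2.84). Mt2 had 11.1, 28.2 and 12.8 in Cal and 131, 183 and 134 in Model, and Mt1 had 3718, 8009 and 5796 in Cal and 39899, 40817 and 38991 in Model. Of 12 listed of 24 glucocorticoid-induced genes 9 were lower and 0 higher, with Lcn2, Angptl4 and Mt2 leading, genes that inflammation or hypoxia can raise as well. Of 5 listed clock genes 3 were lower, Ciart, a repressor of the clock, at 26.8, 14.1 and 22.2 in Cal and 100.4, 141 and 213 in Model (log2 fold change -2.77, standard error 0.36, limma adjusted p = 0.000628), Per2 at -1.37 and the output factor Dbp at -1.44. The call of Dbp was lost without Cal 2 (-0.79), Model 2 (-1.43) or Model 3 (-1.16), with limma adjusted p of 0.0486 to 0.125.

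In the kinase pathways, MAP kinase genes gave 12 higher and 4 lower of 34 listed (median 0.80), and 20 and 1 under median-ratio scaling. Map3k11, which feeds JNK, had 1531, 1200.5 and 1336 in Cal and 343, 257 and 355 in Model (log2 fold change 2.09, standard error 0.18, limma adjusted p = 0.000178), and Map4k2 and the ERK-activated kinase Rps6ka2 were higher with it (1.95 and 1.59), whereas Map2k1, which activates ERK, was lower (-1.27). Of 34 phosphoinositide kinase genes 8 were higher (23.5%) and 12 lower (35.3%), shares near the background of 28.4% and 31.6%. The counts turned to 12 higher and 8 lower under median-ratio scaling and 12 higher and 10 lower under quantile normalization. Pik3ap1 and Pik3r5, adaptors of leukocytes, were lower (-1.88 and -2.04), and Igf1, a growth factor that signals through this pathway, was higher, at 258, 202 and 266 in Cal and 63.7, 50 and 37.4 in Model (log2 fold change 2.26, standard error 0.25, limma adjusted p = 0.000359). Akt1 had 3704, 4086 and 3988 in Cal and 3009, 2559.7 and 2997 in Model and was not called (log2 fold change 0.46, limma adjusted p = 0.0115).

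The sides also differed in properties that no list used. Genes called lower in Cal had a median length of 3711 bases against 4484 on the higher side and 4377.5 over all listed genes, and among the shortest 858 genes 43.1% were lower against 23.1% among the longest 858. Of the called genes 11.7% on the lower side and 6.07% on the higher were other than protein coding, with 63 and 10 pseudogenes. By level, 50.7% of the 858 genes with the lowest mean were called higher and 46.6% lower, against 10.7% and 34.8% of the 858 with the highest. Gene length, biotype and level move with the direction of the call, and their part in the counts above was not tested. Rat genes of the same symbol were found in RefSeq for 93.9% of the protein-coding genes called higher and 86.8% of those called lower.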

How the data were processed

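Cardiac RNA of 3 rats per group was sequenced as 150-base paired reads after TRIzol extraction and poly-T selection. Sample columns hold a deposited signal, namely the authors' read count per gene over 1 size factor per library, computed with DESeq2, and whole reads were recovered for 100% of values at a tolerance of 0.02. The other deposited value used is the gene length in bases. The paper names rat reference sequences and the submitters' processing notes name Bowtie 0.12.2 and the mouse builds mm8 and mm9, so the build behind the counts is uncertain. The authors' log2 fold changes, p-values and adjusted p-values were not used, and neither were their mean columns beyond the check of headings. Columns of other samples numbered 0. Total depth is unknown, since only listed genes were deposited. No replicate library was a duplicate, since pairs had a chi-square of 15.5 to 80.7 per degree of freedom.

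Genes were tested with limma 3.58.1 in R 4.3.3 (linear model, trended prior variance) on log2(normalized count + 1), which understates the fold change of low genes, and Benjamini-Hochberg adjustment ran over all 4288 genes. The smallest two-sided exact permutation p for 3 libraries against 3 is 0.1, so single sums have no test. The planned test allowed for normalized values or counts. The recovered reads were also tested with edgeR 4.0.16 and DESeq2 1.42.0. Further alternatives were other pseudocounts, scalings, filters and thresholds, the replicate block, and each library left out. Cell type markers (18 lists) and functions (53 lists) were matched by gene symbol, with 122 genes in more than 1 list. The genes and lists were chosen with earlier results of these data known. The symbol patterns of 6 lists (class I, heat shock, cation channels, G protein-coupled receptors, solute carriers, histone modifiers) were later corrected for genes that only share a prefix. The named genes are those of each list that the design rule selects: the first members of each marker list, the largest changes in each direction of each list among called genes (for function lists, where the groups did not overlap and the higher one averaged 100 or more), the 10 most abundant per kb on each side, and genes of proteins the study measured. Others are said to be named after their values were seen, and some named genes are not reported here. Genes with at most 3 reads in every library of a group (136 in Cal, 69 in Model) have no fold change in the text, and their bound is computed against 3 counts. Figures and promoter searches used Python 3.11.15. The scripts were tested on simulated data.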

Additional observations from a re-analysis of the deposited data

How the results depend on the processing

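Of the choices tried, only dropping the fold change limit moved the number of calls over all genes by more than 1.5 times, to 4272 genes, 1971 higher and 2301 lower in Cal. Single lists moved more. Of 65 list medians, 43 moved by more than the replicate spread under median-ratio scaling, 35 under quantile normalization, 9 with a pseudocount of 10 and 4 each by edgeR and DESeq2. Leaving out 1 library at a time gave 2344 to 2704 calls, fewest without Model 2 and most without Model 3, with 1121 to 1275 higher and 1223 to 1429 lower. The other settings gave 2182 (pseudocount of 10) to 2693 (median-ratio scaling), including 2593 by edgeR, 2596 by DESeq2, 2306 at an adjusted p under 0.01 and 2379 at a mean of at least 10. Protein-coding genes alone, a setting chosen after seeing the data, gave 2342. Quantile normalization gave 1393 higher and 1175 lower. It turned Tcap from -0.64 to 0.32 (adjusted p = 0.345 from limma), and its call was lost for 21 of the 309 named genes. Those in the text are B2m, C3, Dbp, Folr2, Ifitm3, Irf9, Klf2, Map2k1, Nfatc4, Nppa, Psme1, Psme2b, Robo4, Serping1 and Stat3, of which B2m had -0.59 (limma adjusted p = 0.0779). Under that setting Acta2 (1.07) and Akt1 (1.08) passed both limits. Median-ratio scaling also lost the call of 21 named genes, of which C3, Dbp, Irf9, Klf2, Map2k1, Nppa, Psme2b and Uchl1 are in the text. The median of the selectin list changed sign under quantile normalization (0.058), median-ratio scaling (0.17) and without Model 3 (0.017), and those of the respiratory chain (0.31) and ribosomal proteins (0.036) under quantile normalization. The zinc finger median of 0.062 turned to -0.022 without Model 3 and -0.0091 without Cal 2. Whether the replicate numbers pair the rats cannot be told from these libraries. Deviations of libraries with the same number correlated by 0.11, -0.12 and -0.081, and those with different numbers by -0.20 to 0.25. A fit with the number as a replicate block called 2574 genes, 1217 higher and 1357 lower, and of the named genes changed the call of Folr2 alone (limma adjusted p = 0.0561). The causes of these changes were not tested. A level under about 3 reads per library, as in 205 listed genes, limits what the depth can show.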

Other observations

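Transcription factors as the deposited annotation classes them gave 96 higher and 73 lower of 271 listed. Beside the IRF, STAT and SAND families, 3 of 3 orphan receptors of the NGFIB family were higher in Cal, 4 of 4 of the Rel homology family (Rel and 3 NFAT factors), 3 of 3 of the retinoid X receptor family and 3 of 4 of the estrogen receptor family. Among the NFAT factors, the call of Nfatc4 was lost with a pseudocount of 10 (0.96), under quantile normalization (0.91) and without Model 2 (0.998). Homeobox factors gave 9 higher and 5 lower of 19, ETS factors 5 and 4 of 10, zinc finger factors of the C2H2 class 27 and 17 of 78, and basic leucine zipper factors 4 and 7 of 24. In the wider list of zinc finger genes 18 were higher and 14 lower of 64, with Zfp697 (-2.86) and Zbtb16 (-1.79) lower and Zfp395 (1.70) higher. Histone modifiers and chromatin remodelers gave 9 and 8 of 46. Tet1, which oxidizes methylated cytosine, had 152, 86.4 and 114 in Cal and 10.8, 28 and 17.3 in Model (log2 fold change 2.65, standard error 0.38, limma adjusted p = 0.000957), and Setdb2, a histone methyltransferase, 62.7, 65.7 and 92.2 in Cal and 712, 2122 and 947 in Model (log2 fold change -3.94, standard error 0.39, limma adjusted p = 0.000277). The groups did not overlap in either gene. These families were examined after the results were known.

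Solute carriers gave 20 higher and 25 lower of 82 listed, with Slc29a2, a nucleoside carrier, at 2.10 and Slc15a3, a peptide carrier of phagocyte endosomes, at -3.49. G protein-coupled receptors and RGS proteins gave 21 and 21 of 62. Gpr22, an orphan receptor of the heart, had 577, 464 and 407 in Cal and 107, 133 and 47 in Model (log2 fold change 2.43, standard error 0.38, limma adjusted p = 0.00116), with every Cal library higher. Small GTPases and their regulators gave 34 higher and 20 lower of 104, with the exchange factors Rasgrf2 (3.85) and Rasgrp2 (3.13) higher and Dock10 (-1.81) lower. Cell cycle genes gave 7 and 4 of 18, with the inhibitor Cdkn1c at 2.29 and the replication helicase subunit Mcm6 at -1.65. Lysosome and autophagy genes gave 2 and 1 of 20, histones 1 and 2 of 4, mitochondrial ribosomal proteins 0 and 0 of 2, and adipocyte markers 1 and 0 of 2 listed of 14. The balance of several of these lists moved with the scaling. Median-ratio scaling gave 30 higher and 22 lower of the solute carriers, 30 higher and 19 lower of the G protein-coupled receptors, 17 higher and 7 lower of the histone modifiers and 7 higher and 1 lower of the lysosome genes. None of 5 sex-linked genes in the list was in the table.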
